A study of Mus musculus with 10 samples.

Results

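The TRIM family of ubiquitin ligases was followed in mouse PDAC (pancreatic ductal adenocarcinoma) tumor cells profiled by bulk RNA-seq. Members were taken as every row of the expression table whose gene name is TRIM followed by a number and at most 1 letter. That gave 67 of the 24755 genes with a value. Of these, 35 had a mean over the 10 libraries of at least 1 and were tested. Another 22 lay below 1 but were above 0 in some library, and 10 were listed at 0 in every library.

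PDAC cells were exposed or not to recombinant mouse interferon gamma (IFNγ) for 20 h, and flow cytometry for PD-L1 on the cell surface, the immune checkpoint ligand encoded by Cd274, was used to collect them. "Untreated all" (4 libraries) held cells without IFNγ, "treated all" (3 libraries) held cells with IFNγ, and "PD-L1 high" (3 libraries) held the IFNγ-treated cells with high surface PD-L1. No genotype, cell line or IFNγ dose is given in the sources used here. The strain label is C57BL/6 for both of the "all" groups and reads C57BL/7, C57BL/8 and C57BL/9 for the PD-L1 high libraries. The labels do not say whether the libraries of a group are separate cultures. The p-values therefore reflect only how far these libraries spread, which may be technical variation.

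TRIM proteins carry a RING domain, which passes ubiquitin from an E2 enzyme to a substrate, then B-box zinc fingers and a coiled coil through which they pair up. Their C-terminal domain sets the class, and the PRY-SPRY domain, which binds substrates such as viral capsids or antibody, is the most common. Many PRY-SPRY members act in antiviral defence and are known interferon-stimulated genes, while Trim28 and its relatives, of another class, work on chromatin. Type I interferon acts on promoters through the interferon-stimulated response element and IFNγ through the gamma-activated site, and IFNγ also induces factors that bind the former.

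Promoter stretches are shown for 8 members because 7 of them hold a motif match and rose with IFNγ, while Trim68 has none and fell. Being picked on both match and call, they cannot show how match and call go together. Trim2 holds a match to the same motif and was not called, and Trim13, Trim15, Trim24, Trim25 and Trim47 rose without one in their windows. Counts over all windows are given below. Each runs 5′ to 3′ on the gene's own strand, from RefSeq (build GRCm38.p6). Capitals mark matches, on either strand, to GAAANNGAAA, the core of the interferon-stimulated response element. Where matches overlap, the joint run is in capitals. The stretches end 30 bases after the start site, except that of Trim26, which holds its matches farther upstream. Trim68 is a near neighbour of Trim21.
Trim21, chr7:102565453-102565572, minus strand: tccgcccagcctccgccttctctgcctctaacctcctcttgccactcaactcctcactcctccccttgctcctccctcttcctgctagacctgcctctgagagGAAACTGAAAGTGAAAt
Trim34a, chr7:104244367-104244486, plus strand: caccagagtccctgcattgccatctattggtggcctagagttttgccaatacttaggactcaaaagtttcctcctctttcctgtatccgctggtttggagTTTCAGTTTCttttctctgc
Trim5, chr7:104288077-104288196, minus strand: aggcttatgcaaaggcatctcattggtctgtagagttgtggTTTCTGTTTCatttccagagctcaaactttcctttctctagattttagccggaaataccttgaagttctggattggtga
Trim12a, chr7:104315466-104315585, minus strand: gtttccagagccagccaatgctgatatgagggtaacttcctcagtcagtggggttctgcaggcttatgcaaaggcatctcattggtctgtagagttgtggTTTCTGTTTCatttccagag
Trim12c, chr7:104353320-104353439, minus strand: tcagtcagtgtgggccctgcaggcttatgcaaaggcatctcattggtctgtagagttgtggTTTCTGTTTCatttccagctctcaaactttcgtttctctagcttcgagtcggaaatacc
Trim30a, chr7:104465164-104465283, minus strand: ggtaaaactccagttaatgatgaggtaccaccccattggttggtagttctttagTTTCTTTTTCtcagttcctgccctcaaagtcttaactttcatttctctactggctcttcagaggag
Trim26, chr17:36836956-36837075, plus strand: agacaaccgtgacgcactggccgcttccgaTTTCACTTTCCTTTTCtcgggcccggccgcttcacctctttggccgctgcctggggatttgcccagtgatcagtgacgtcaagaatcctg
Trim68, chr7:102687298-102687417, minus strand: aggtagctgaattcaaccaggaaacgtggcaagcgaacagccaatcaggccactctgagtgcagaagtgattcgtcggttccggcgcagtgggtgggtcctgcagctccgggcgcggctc

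The deposited values are a normalized signal without a named unit, so the sequencing depth is unknown and levels are compared between libraries of 1 gene, never between genes. Library totals ran from 698396 to 715500. Cd274 checked the labels, at 2.58 ± 0.17 (SD, n = 4) in untreated all, 33.02 ± 0.71 (n = 3) in treated all and 47.5 ± 1.2 (n = 3) in PD-L1 high. All 7 epithelial markers were expressed, at a summed signal of 4300.3 to 4455 in untreated all, 5296 to 5322 in treated all and 4802 to 4874 in PD-L1 high. Among the immune markers, Cd3e and Adgre1 were at 0 in every library and Cd68 alone reached a mean of 1, with a summed signal of 5.60 to 6.42, 10.6 to 11.1 and 9.47 to 11.4. Of 6 fibroblast markers, Pdgfra, Pdgfrb, Col1a1 and Col3a1 reached a mean of 1, and the sum was 171 to 187, 125 to 137 and 140.2 to 149. No endothelial marker did (0.0397 to 0.501 over all libraries), and of 4 acinar markers Cpa1 and Prss1 were at 0 while the sum, mostly of Amy2a5, was 1.89 to 4.28, 4.75 to 8.88 and 10.2 to 14.3. These sums moved with the groups, and their part in the results below was not tested. In bulk libraries fewer cells of a type and less RNA per cell cannot be told apart.

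The untreated libraries were not spread as 4 independent samples would be. When libraries 1 and 2 were averaged and set against the average of 3 and 4, the median absolute log2 difference was 0.00262 for all tested genes and 0.00291 for the 35 TRIM genes. The other ways of pairing them gave 0.0525 and 0.0659 over all genes. Tests that use these libraries are therefore too liberal, and counts without untreated libraries 3 and 4 stand beside the main ones.

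With IFNγ, TRIM transcripts split rather than moving together: 13 of the 35 tested genes rose and 12 fell in treated all against untreated all. The members that rose furthest were rodent relatives of the antiviral factor TRIM5 (Trim12a, Trim12c), the antibody receptor Trim21, Trim34a and Trim30a. The largest falls were those of Trim59, Trim68, Trim45 and Trim41. A call is a Benjamini-Hochberg adjusted p below 0.05 from limma on log2(signal + 1), adjusted over all 11487 tested genes, and fold changes are on that scale, which understates the change of low genes. Calls covered 61.9% of all tested genes in this comparison (23.1% higher, 38.8% lower) against 71.4% of the TRIM genes (37.1% higher, 34.3% lower). Median-ratio scaling turned the split over all genes into 3538 higher and 3469 lower. It turned the split of the TRIM genes into 14 higher and 9 lower, so the near-even split depends on the scaling. Of all genes 16.6% were called with a log2 change of at least 0.5 and groups that did not overlap (7.18% higher, 9.39% lower), and 14 of the 35 TRIM genes were, 10 higher and 4 lower. The median log2 change was -0.03 for the TRIM genes and -0.075 for all genes, and under median-ratio scaling the TRIM median was 0.05. Without untreated libraries 3 and 4, 20 TRIM genes were called, all of them among the 25. The filter passed Trim30a, Trim5 and Trim15 only through libraries with IFNγ, as they averaged 0.344, 0.746 and 0.721 in untreated all. It left out Trim40 and Trim71, at 1.14 and 1.09 in untreated all and lower with IFNγ, and Trim6, at 1.45 in treated all. With no filter 16 of 57 TRIM genes rose and 13 fell. At a mean of at least 5, 9 of 29 rose and 11 fell. The filter enters every count against untreated all below.

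**Figure D1:**
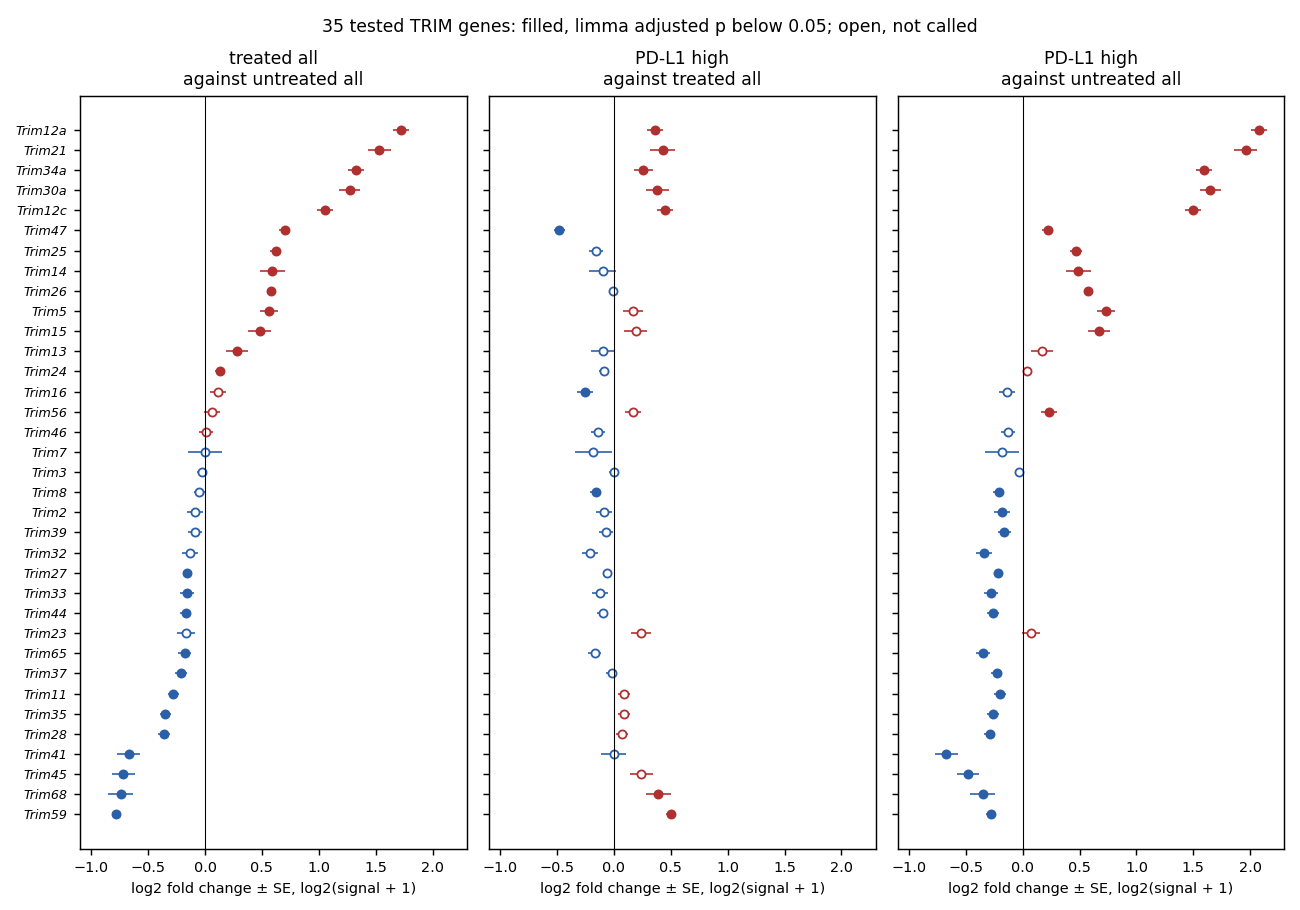
Log2 fold change on the log2(signal + 1) scale, with its SE as a line, for the 35 tested TRIM genes in 3 comparisons, ordered by the change in treated all against untreated all. Filled points were called by limma; Trim12a lies at 1.72 and Trim59 at -0.78 in the left panel.

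A TRIM cluster on mouse chromosome 7, with bounds set by hand, held most of the large increases. It has 11 members between positions 102557920 and 104507853 (GRCm38.p6). A dense run of 9 of them, from Trim6 to Trim30d, lies between 104218795 and 104507853, and Trim21 and Trim68 lie apart from it. All 11 were put in the PRY-SPRY class by symbol number, not by sequence. The longest open reading frames of Trim12a and Trim30b were 894 and 612 bases, against 1494 for Trim5. Whether they encode the domain was not checked. Of the 7 tested, 6 rose and 1 fell in treated all against untreated all, with a median log2 change of 1.27. Over all tested genes 23.1% rose and 38.8% fell. Among the 6, Trim30a and Trim5 passed the filter only through libraries with IFNγ. Of the 25 tested members outside the clusters on chromosomes 7 and 17, 5 rose, 11 fell and 9 were not called, with a median of -0.13. Those shares are near the ones of all genes. Trim3, counted outside, starts at 105604463 on chromosome 7 and was not called, at -0.03 (limma adjusted p = 0.56).

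Trim12a (chromosome 7, 104299893 to 104315558) is a rodent relative of primate TRIM5, which blocks incoming retroviral capsids. Its signal was 4.26, 5.00, 5.07 and 4.25 in untreated all, 16.2, 17.98 and 18.5 in treated all, and 22.1, 23.1 and 23.1 in PD-L1 high. The 3 groups did not overlap and stepped up in that order. Its log2 change was 1.72 ± 0.07 (SE; limma adjusted p = 3.3e-09) in treated all and 2.08 ± 0.07 (adjusted p = 7.1e-10) in PD-L1 high, each against untreated all. Trim12c (104338754 to 104353358), a further copy, read 2.81, 2.49, 2.64 and 2.68 in untreated all, 6.53, 6.00 and 7.18 in treated all, and 9.27, 8.78 and 10.01 in PD-L1 high. It showed the same order without overlap, with a log2 change of 1.05 ± 0.07 (adjusted p = 2.4e-07) in treated all and 1.50 ± 0.07 (adjusted p = 1.4e-08) in PD-L1 high. Trim5 (104263386 to 104288254), the mouse gene that carries the TRIM5 name, read 0.577, 0.913, 0.733 and 0.762, then 1.53, 1.59 and 1.62, then 1.80, 1.87 and 2.03. All libraries with IFNγ lay above all without it. The log2 change was 0.56 ± 0.08 (adjusted p = 1.5e-04) in treated all and 0.73 ± 0.08 (adjusted p = 2.3e-05) in PD-L1 high, and with a pseudocount of 0.1 it was 1.0 and 1.25.

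Trim30a (104409025 to 104465193), known in mouse to restrain Toll-like receptor signalling, read 0.315, 0.361, 0.314 and 0.387 in untreated all. It read 2.20, 2.35 and 2.21 in treated all and 3.38, 3.72 and 2.65 in PD-L1 high. It was low in every untreated library, and the 3 groups did not overlap. The log2 change was 1.27 ± 0.09 (adjusted p = 5.2e-07) in treated all and 1.65 ± 0.09 (adjusted p = 8.0e-08) in PD-L1 high, or 2.41 and 2.90 with a pseudocount of 0.1. Trim34a (104244448 to 104262244), whose human counterpart acts with TRIM5 against retroviral capsids, read 2.07, 2.05, 1.90 and 2.24, then 7.45, 6.76 and 5.98, then 8.45, 7.80 and 8.45. Its groups did not overlap either, and the log2 change was 1.33 ± 0.07 (adjusted p = 5.8e-08) in treated all and 1.59 ± 0.07 (adjusted p = 1.5e-08) in PD-L1 high.

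Sets of these neighbours are near copies where they align. Over their longest open reading frames (GENCODE M21), aligned bases were 97% identical between Trim5 and Trim12a, 96.6% between Trim5 and Trim12c, 96.3% between Trim12a and Trim12c, 98.2% between Trim34a and Trim34b and 90.2% between Trim30a and Trim30d. No source used here says how the authors' counting shared reads among such copies. The split of signal within each set is uncertain, and the copies are not independent observations. The spans of 17 of the 35 tested members overlap another annotated gene. Among them are 7 of the 15 members with values in every library, with a noncoding RNA in each of the 7. A protein-coding gene overlaps Trim28 (the model Gm31649), Trim13 (Kcnrg), Trim32 (Astn2), Trim37 (Ppm1e) and Trim46 (Krtcap2). No source says that counting used strand. Below the mean of 1, Trim30d averaged 0.295, 0.684 and 0.717 in the 3 groups, Trim34b 0.0759, 0.135 and 0.338, and Trim6 0.650, 1.45 and 0.787, while Trim30b stayed under 0.1.

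Trim21 and Trim68 lie at the near end of the region and went opposite ways. Trim21 (102557920 to 102565482) is the cytosolic receptor that sends antibody-coated virus to the proteasome. It read 4.01, 2.71, 3.57 and 3.20 in untreated all, 12.8, 10.5 and 11.4 in treated all, and 16.3, 14.9 and 16.6 in PD-L1 high. The groups did not overlap, and the rise was 1.53 ± 0.10 (adjusted p = 2.0e-07) in treated all and 1.96 ± 0.10 (adjusted p = 2.9e-08) in PD-L1 high. Trim68 (102677579 to 102687335), a ligase whose human counterpart acts on the androgen receptor, read 3.32, 4.16, 3.54 and 3.94, then 2.12, 1.91 and 1.51, then 2.78, 2.29 and 3.13. Untreated libraries were highest, treated all lowest and PD-L1 high between, with no overlap. It fell by 0.74 ± 0.11 on the log2 scale (adjusted p = 1.1e-04) in treated all and by 0.35 ± 0.11 (adjusted p = 0.015) in PD-L1 high. The latter call was lost without PD-L1 high library 2 (adjusted p = 0.069), without untreated libraries 3 and 4 (0.081) and with median-ratio scaling (0.051).

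**Figure D2:**
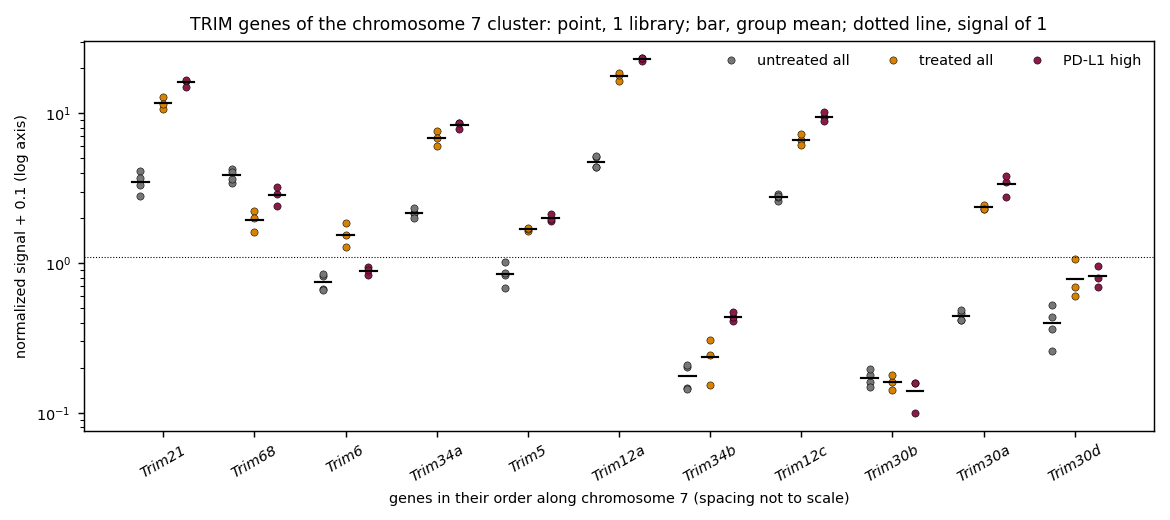
Normalized signal plus 0.1, on a log axis, for the 11 TRIM genes of the chromosome 7 region in their order along the chromosome (spacing not to scale). Points are libraries and bars group means; Trim21, Trim34a, Trim5, Trim12a, Trim12c and Trim30a sit higher in both groups with IFNγ, and Trim68 sits lower.

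Motif matches in the promoters were set beside the calls. RefSeq windows from 250 bases before to 50 after the start site were found for 52 of the 67 members. The core GAAANNGAAA, on either strand, was in 9 of the 52, and in 3.99% of the 27025 genes with a window. Among tested members it was in 7 of the 12 with a window that rose in treated all (Trim12a, Trim12c, Trim21, Trim26, Trim30a, Trim34a and Trim5), in none of the 8 that fell and in 1 of the 7 not called (Trim2). The match in Trim21 is doubled, with GAAACTGAAA and GAAAGTGAAA overlapping from 14 bases after the start site, and that in Trim26 is doubled too, from 160 bases before it. The gamma-activated site TTCNNNGAA, searched on both strands, was in 9.55% of all genes with a window and in Trim15, Trim45 and Trim46 among tested members, of which Trim15 rose, Trim45 fell and Trim46 was not called. The windows are not independent: those of Trim5 and Trim12a share a run of 241 bases that holds the core, that of Trim12c shares a run of 71 with each of them and has the same core letters, and those of Trim30a and the untested Trim30d share 118. Trim34a and Trim34b share no run over 11 bases, and Trim34b has no match. No window was found for Trim14. A match is a description of these letters only.

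**Figure D3:**
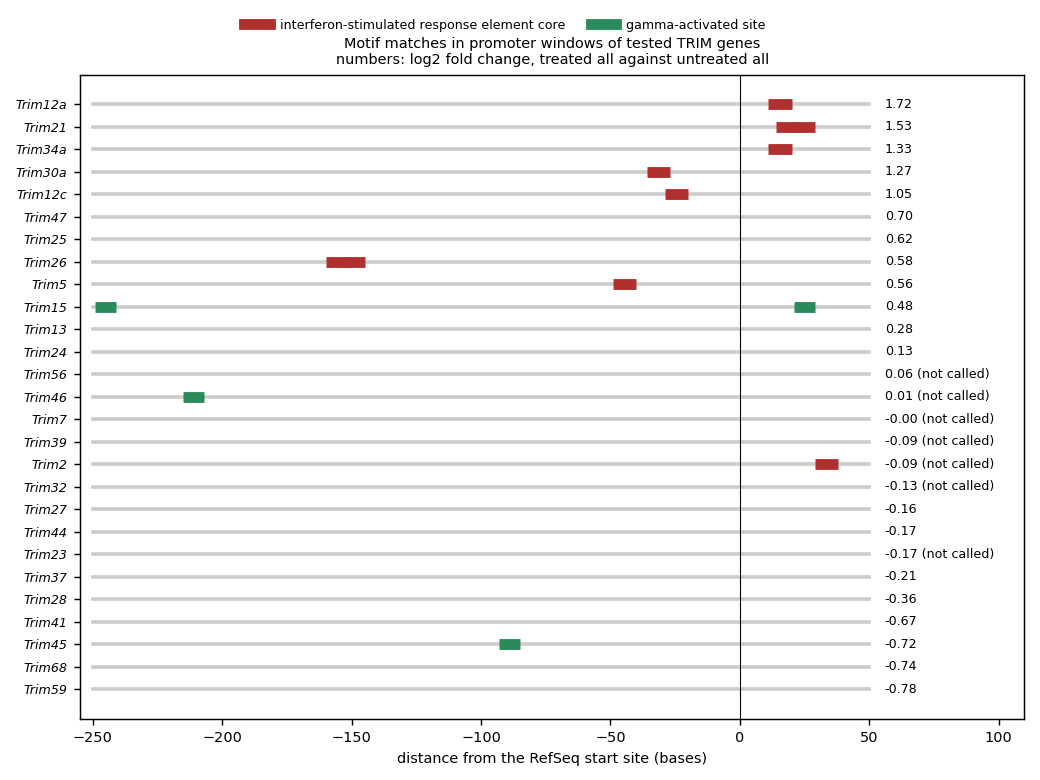
Positions of motif matches from the RefSeq start site in the 27 tested TRIM genes with a promoter window, ordered by log2 fold change in treated all against untreated all, which is printed at the right. For a gene with several windows the one with the most matches is drawn; matches to the interferon-stimulated response element core lie in 7 genes that rose and in Trim2.

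On chromosome 17, between 36258872 and 36910217, 6 members lie beside the major histocompatibility genes, and of the 3 tested Trim26 and Trim15 rose and Trim39 was not called in treated all. Over all tested genes 23.1% rose and 38.8% fell. Trim15 passed the filter only through libraries with IFNγ. Trim26 (36837123 to 36859398), which has been described to act on IRF3 in the antiviral pathway, read 40.3, 40.5, 40.9 and 39.6 in untreated all. It read 61.1, 60.6 and 60.5 in treated all and 59.4, 59.3 and 61.7 in PD-L1 high. Both groups with IFNγ lay far above untreated all and overlapped each other. Its log2 change came to 0.58 ± 0.03 (adjusted p = 1.2e-08) in treated all and 0.57 ± 0.03 (adjusted p = 1.8e-08) in PD-L1 high. Trim15 (36860690 to 36867367), found at focal adhesions, read 0.695, 0.741, 0.680 and 0.767, then 1.50, 1.06 and 1.69, then 1.81, 1.75 and 1.64. Its untreated libraries were lowest, and the groups with IFNγ overlapped each other. On the log2 scale it rose by 0.48 ± 0.10 (adjusted p = 0.0013) in treated all and 0.67 ± 0.10 (adjusted p = 1.4e-04) in PD-L1 high, or 0.87 and 1.16 with a pseudocount of 0.1.

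Outside these clusters 3 further members rose by at least 0.5, among them cofactors of RIG-I signalling. Trim25 (chromosome 11, 88999403 to 89020294) puts ubiquitin chains on the RNA sensor RIG-I and is also a ligase for the ubiquitin-like protein ISG15. It read 21.5, 18.6, 20.2 and 20.00 in untreated all, 30.6, 30.1 and 33.7 in treated all, and 27.4, 28.05 and 28.9 in PD-L1 high. No groups overlapped, and treated all was highest. Trim25 rose by 0.62 ± 0.05 (adjusted p = 2.2e-06) in treated all and 0.47 ± 0.05 (adjusted p = 2.5e-05) in PD-L1 high. Trim14 (chromosome 4, 46505072 to 46536150), which lacks a RING and serves as an adaptor of the RIG-I partner MAVS, read 8.69, 5.98, 7.77 and 6.96, then 10.8, 11.7 and 12.01, then 12.4, 10.3 and 9.39. Libraries with IFNγ all lay above those without and overlapped among themselves. The log2 change was 0.59 ± 0.11 (adjusted p = 8.8e-04) in treated all and 0.49 ± 0.11 (adjusted p = 0.0034) in PD-L1 high.

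Trim47 (chromosome 11, 116105750 to 116110235), a further PRY-SPRY ligase, had its peak in treated all. It read 24.6, 27.3, 26.96 and 24.9 in untreated all, 42.1, 45.2 and 40.8 in treated all, and 30.9, 29.98 and 30.2 in PD-L1 high. The PD-L1 high libraries sat narrowly above untreated all and well below treated all, with no overlap. The log2 change was 0.70 ± 0.05 (adjusted p = 3.5e-07) in treated all and 0.22 ± 0.05 (adjusted p = 0.0025) in PD-L1 high, each against untreated all.

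Beside Trim68, 3 members fell by at least 0.5 in treated all. Trim59 (chromosome 3, 69035292 to 69044742), which has a transmembrane segment in place of a substrate-binding domain, read 62.7, 58.7, 59.6 and 61.5 in untreated all. It read 36.7, 33.8 and 33.98 in treated all and 50.7, 50.9 and 47.8 in PD-L1 high. The 3 groups did not overlap, with PD-L1 high between the others. It fell by 0.78 ± 0.04 on the log2 scale (adjusted p = 2.6e-08) in treated all and by 0.28 ± 0.04 (adjusted p = 1.3e-04) in PD-L1 high, the latter by 0.18 under median-ratio scaling. Trim45 (chromosome 3, 100921203 to 100936925), the filamin-domain member, read 7.90, 7.44, 7.23 and 8.10, then 4.84, 4.10 and 3.84, then 5.43, 5.99 and 4.31. Its untreated libraries were highest and the other groups overlapped. It fell by 0.72 ± 0.10 (adjusted p = 7.1e-05) in treated all and by 0.48 ± 0.10 (adjusted p = 0.0015) in PD-L1 high. Trim41 (chromosome 11, 48806403 to 48818199), whose human counterpart was described as a ligase for protein kinase C, read 49.5, 46.96, 49.02 and 47.4, then 25.2, 31.1 and 34.2, then 31.6, 25.8 and 33.1. Again the untreated libraries were highest and the other groups overlapped, with a fall of 0.67 ± 0.10 in treated all (adjusted p = 1.8e-04) and of 0.67 ± 0.10 in PD-L1 high (adjusted p = 2.1e-04).

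**Figure D4:**
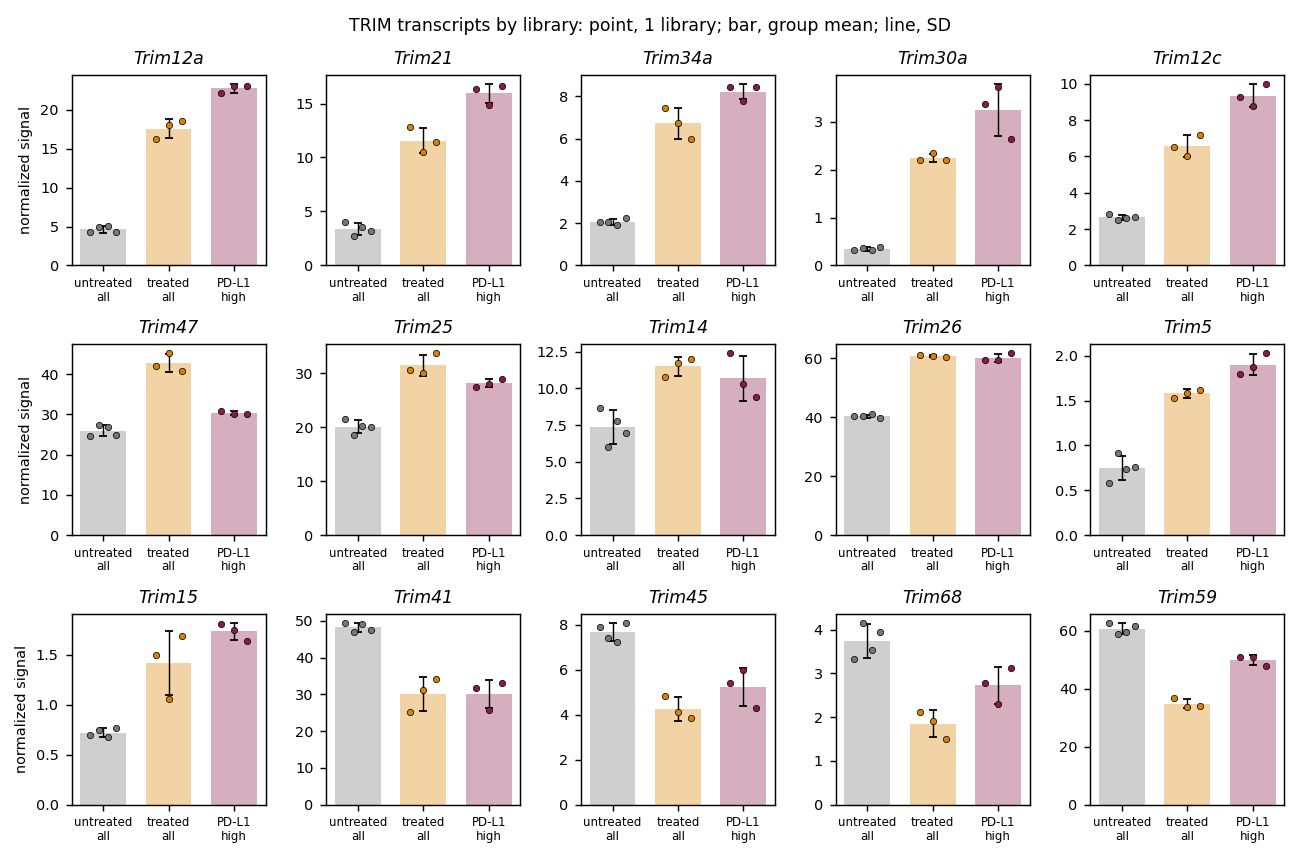
Normalized signal of the 15 TRIM genes with values in every library, ordered by log2 fold change from Trim12a to Trim59. Points are libraries, bars group means and lines SD; the axis of each panel starts at 0, and treated all lies above untreated all in the first 11 panels and below it in the last 4.

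The remaining called members changed by less than 0.5 in treated all. Trim28, the KRAB zinc finger corepressor also named KAP1, changed most among them. It averaged 309 ± 4.8 (SD) in untreated all, 241 ± 15 in treated all and 253 ± 18 in PD-L1 high. It fell by 0.36 ± 0.05 (adjusted p = 6.5e-05) in treated all and by 0.29 (adjusted p = 3.3e-04) in PD-L1 high. Trim35, Trim11, Trim37, Trim65, Trim44, Trim27 and Trim33 also fell, by 0.35 down to 0.16, and Trim13 and Trim24 rose by 0.28 and 0.13. Trim33 and Trim24 are the other chromatin-binding members of the PHD and bromodomain class, and Trim65 is a ligase for the RNA sensor MDA5. The small calls of Trim13, Trim24, Trim33, Trim44 and Trim65 were lost without untreated libraries 3 and 4, at adjusted p-values of 0.11, 0.094, 0.15, 0.057 and 0.099. Leaving out treated all library 1 also ended the calls of Trim13 (0.085), Trim24 (0.051) and Trim33 (0.066), and leaving out treated all library 2 those of Trim13 (0.12), Trim33 (0.18) and Trim65 (0.06). Trim13 was also lost without untreated library 2 (0.063) or 3 (0.075), and Trim33 without untreated library 1 (0.1), 3 (0.053) or 4 (0.099) or without PD-L1 high library 1 or 2 (0.052 for each). Median-ratio scaling ended the calls of Trim33 (0.22), Trim44 (0.074) and Trim65 (0.081) and added Trim16, at 0.18 (adjusted p = 0.026). The 10 members not called, Trim16, Trim2, Trim23, Trim3, Trim32, Trim39, Trim46, Trim56, Trim7 and Trim8, ranged from -0.17 (Trim23) to 0.11 (Trim16). Without treated all library 1, Trim23 was called at -0.27 (adjusted p = 0.0087) and Trim7 at -0.23 (0.043), and without treated all library 3, Trim32 at -0.18 (0.043).

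Classes of C-terminal domain were assigned by symbol number. Trim12a thus counts as PRY-SPRY, though its longest open reading frame is 894 bases, against 1494 for Trim5. Trim14, Trim16 and Trim44 were instead classed by the lack of a RING. Any C-terminal domain they carry does not enter the class counts. The 18 tested PRY-SPRY members divided into 10 that rose, 6 that fell and 2 not called in treated all. Their median log2 change was 0.52, where 23.1% of all tested genes rose and 38.8% fell. Of the 10 that rose, Trim30a, Trim5 and Trim15 passed the filter only through libraries with IFNγ. None of the 3 tested NHL-repeat members (Trim2, Trim3 and Trim32) was called, and their values lay from -0.13 to -0.03, though Trim32 was called without treated all library 3 (adjusted p = 0.043). Of the 3 PHD and bromodomain members, Trim28 and Trim33 fell and Trim24 rose, where 61.9% of all tested genes were called. The calls of Trim33 (limma adjusted p = 0.15) and Trim24 (0.094) were lost without untreated libraries 3 and 4. The COS-domain members Trim54, Trim55 and Trim63, known from striated muscle, were below the level tested.

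**Figure D5:**
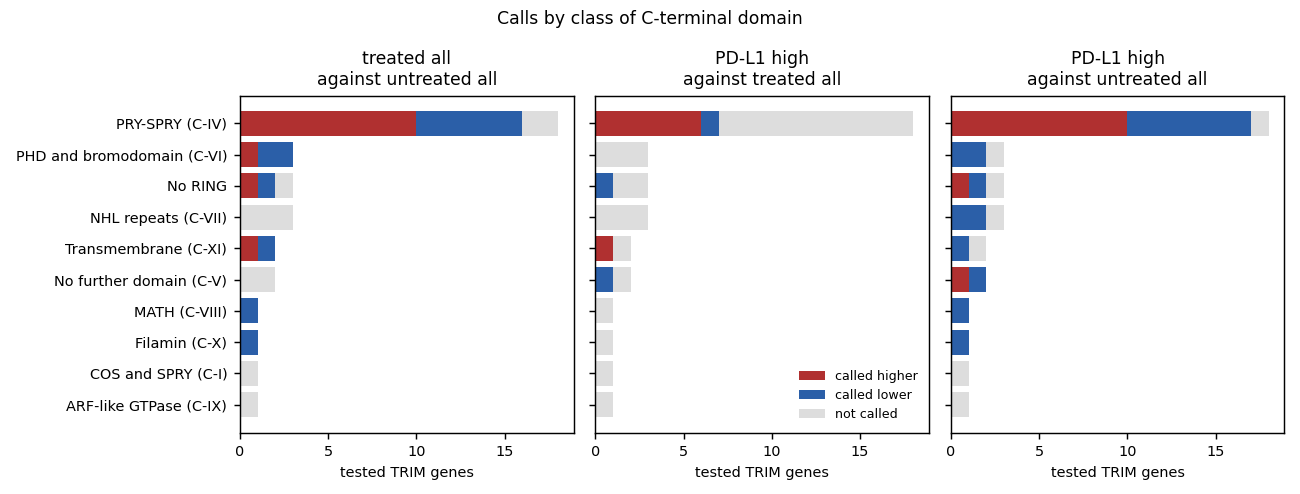
Number of tested TRIM genes called higher, called lower or not called by limma, for each class of C-terminal domain as set by symbol number, in 3 comparisons. The No RING class is set by the lack of a RING instead. The PRY-SPRY class has 18 tested genes, of which 10 were higher and 6 lower in treated all against untreated all.

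Within IFNγ-treated cells, the PD-L1 high libraries were compared with treated all. The 2 comparisons share the treated all libraries, so they are given side by side and not related to each other. Here 10 of the 35 TRIM genes were called, 7 higher and 3 lower, or 28.6%, against 25.6% of all tested genes (11.5% higher and 14.1% lower); with upper-quartile scaling the split over all genes was 1719 higher and 1264 lower. The members' median log2 change was -0.01 and that of all genes -0.00699, and the members' became 0.01 with median-ratio and 0.02 with upper-quartile scaling. Without untreated libraries 3 and 4, which enter through the shared estimate of the spread, 5 calls were left, and without PD-L1 high library 1 also 5. Single libraries moved the split as well, to 9 higher and 1 lower without treated all library 1 and to 6 and 6 without treated all library 2.

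In the chromosome 7 cluster 6 of the 7 tested members were called higher and Trim5 was not, at 0.17 ± 0.09 (adjusted p = 0.19). Over all tested genes 11.5% were higher. The 6 include the near copies Trim12a and Trim12c, which are not independent observations. Trim12c was higher by 0.45 ± 0.07 (adjusted p = 0.0014), Trim21 by 0.43 ± 0.11 (adjusted p = 0.013) and Trim12a by 0.36 ± 0.07 (adjusted p = 0.0052). Those 3 calls held in every alternative run. Trim68 was higher by 0.39 ± 0.11 (adjusted p = 0.027), Trim30a by 0.38 ± 0.10 (adjusted p = 0.018) and Trim34a by 0.26 ± 0.08 (adjusted p = 0.035), and these 3 calls were lost in some alternatives. Trim30a was lost without PD-L1 high library 1 (adjusted p = 0.056) or 2 (0.061), and Trim68 when library 3 of treated all (0.09) or library 1 (0.068) or 3 (0.09) of PD-L1 high was left out. The call of Trim34a ended when library 2 (0.066) or 3 (0.11) of treated all, or library 1 (0.093) or 3 (0.092) of PD-L1 high, was left out. All 3 were lost without untreated libraries 3 and 4, at 0.055 for Trim30a, 0.07 for Trim68 and 0.075 for Trim34a.

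Trim59 and Trim47 moved most in this comparison, in opposite directions. Trim59 was higher by 0.50 ± 0.04 (adjusted p = 1.2e-05) and was the only member called with a change of at least 0.5 and no overlap, against 3.09% of all genes (1.43% higher and 1.66% lower). Trim47 was lower by 0.48 ± 0.05 (adjusted p = 7.5e-05). Both calls held in every alternative. Trim16 and Trim8, the latter a binding partner of SOCS1, were lower by smaller amounts, at -0.25 (adjusted p = 0.027) and -0.16 (adjusted p = 0.043). Trim16 lost its call when library 1 or 3 of treated all (0.076 each) or library 1 or 2 of PD-L1 high (0.091 each) was left out. Trim8 lost its own without library 1 (0.14) or 3 (0.071) of treated all, library 3 or 4 of untreated all (0.062 each), or any of the PD-L1 high libraries (0.055, 0.098 and 0.11). Its call also ended under median-ratio (0.069) and upper-quartile scaling (0.073), with no filter (0.068), in the fit without trend (0.056) and with a replicate block (0.088). Both Trim16 (0.071) and Trim8 (0.099) lost their calls without untreated libraries 3 and 4. Without treated all library 1, Trim23 (0.34, adjusted p = 0.011) and Trim56 (0.24, 0.031) were called higher. Without treated all library 2, Trim32 (-0.30, adjusted p = 0.0049), Trim33 (-0.18, 0.047) and Trim65 (-0.21, 0.038) were called lower, and without treated all library 3, Trim35 higher (0.14, 0.029). Both scalings also called Trim23 (adjusted p = 0.042 in each). Among the other members named above, Trim25 was at -0.16 ± 0.06 (adjusted p = 0.071), Trim14 at -0.10 ± 0.12 (0.57), Trim26 at -0.01 ± 0.03 (0.78), Trim15 at 0.19 ± 0.10 (0.22) and Trim41 at 0.00 ± 0.11 (0.99). Trim45 was at 0.24 ± 0.10 (adjusted p = 0.11) and was called without PD-L1 high library 3 (0.023).

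Against untreated all, PD-L1 high libraries had 28 of the 35 TRIM genes called, 12 higher and 16 lower, or 80%, where 60.1% of all genes were called (19.1% higher and 41% lower). With median-ratio scaling 14 TRIM genes were higher and 11 lower, and over all genes 3216 and 3154. The rule of a change of at least 0.5 with no overlap took 9 TRIM genes, 8 higher and 1 lower, and 13.2% of all genes (6.04% higher and 7.16% lower). The median log2 change was -0.14 for the TRIM genes and -0.101 for all genes, and under median-ratio scaling -0.04 and -0.00602. The comparison shares its libraries with both others. Members called here but not in treated all were Trim56, which was higher by 0.23 (adjusted p = 0.014), and Trim2, Trim32, Trim39 and Trim8, which were lower by 0.18, 0.34, 0.16 and 0.21. The difference between those calls was not tested apart from the values above. Without untreated libraries 3 and 4, 23 genes were called, and Trim11, Trim2, Trim39, Trim56 and Trim68 were lost. Median-ratio scaling ended the calls of Trim11 (adjusted p = 0.09), Trim2 (0.25), Trim39 (0.36), Trim68 (0.051) and Trim8 (0.065). It added Trim13 (0.26, adjusted p = 0.045) and Trim24 (0.14, 0.0048). Without PD-L1 high library 1 Trim13 was called (0.27, adjusted p = 0.035), and without PD-L1 high library 3 Trim16 was (-0.23, 0.004). Trim2 was lost without any of untreated libraries 1, 3 and 4 or PD-L1 high libraries 1 and 3 (adjusted p from 0.053 to 0.14), and Trim39 without untreated library 1, 2 or 4 or PD-L1 high library 1 or 3 (0.058 to 0.16).

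Of the 32 members below the tested level, 11 had a group mean above 0.1, which were Trim10, Trim30d, Trim31, Trim34b, Trim36, Trim40, Trim6, Trim62, Trim69, Trim71 and Trim72. Trim40 averaged 1.14, 0.626 and 0.579 in untreated all, treated all and PD-L1 high, and Trim71, an NHL-repeat protein of stem cells, 1.09, 0.706 and 0.656. Those listed at 0 throughout were Trim38, Trim42, Trim50, Trim52, Trim54, Trim61, Trim63, Trim75, Trim80 and Trim9. The other 11, Trim17, Trim29, Trim30b, Trim43a, Trim43b, Trim43c, Trim55, Trim58, Trim60, Trim66 and Trim67, had no group mean above 0.1.

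Genes that work with TRIM proteins were described from lists. Of 20 tested genes of nucleic acid sensing and ISG15 conjugation, 15 rose, 3 fell and 2 were not called in treated all, with a median log2 change of 0.87, where 23.1% of all tested genes rose and their median was -0.075. Isg15, the ubiquitin-like modifier, went from 3.23 ± 0.48 in untreated all to 76.4 ± 3.3 in treated all and 90.4 ± 3.9 in PD-L1 high (log2 change 4.20 in treated all, adjusted p = 4.0e-12). Ube2l6, its E2 enzyme, went from 13.04 ± 0.52 to 116 ± 3.4 and 136 ± 0.61 (3.07, adjusted p = 4.4e-14), and Uba7, its E1 enzyme, from 3.90 ± 0.61 to 35.7 ± 1 and 41.7 ± 4.3 (2.91, adjusted p = 6.2e-10). Dhx58, a RIG-I-like helicase, rose by 2.15 (adjusted p = 1.7e-10). The 3 that fell were Mavs, Traf3 and Ikbke, at -0.27, -0.41 and -0.39, and Ddx58, the gene of RIG-I itself, rose by 1.71 from 6.64 ± 0.58 to 23.96 ± 2.1, these 4 being named after their values were seen. Against treated all, 4 of the 20 genes were higher in PD-L1 high, 2 lower and 14 not called, with a median of 0.07, a share called near the 25.6% of all tested genes. Against untreated all, 13 were higher, 2 lower and 5 not called, with a median of 0.83, where 19.1% of all genes were higher.

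For the general ubiquitin machinery the share called was near that of all genes. Of 18 tested genes for E1 and E2 enzymes and ubiquitin itself, 7 rose, 3 fell and 8 were not called in treated all, with a median of 0.03, beside 61.9% of all tested genes called. Ube2v2 rose by 0.42 (adjusted p = 9.7e-06) and Ube2d3 by 0.24 (adjusted p = 1.0e-06), while the chain-elongating E2 Ube2s fell by 0.46 (adjusted p = 6.7e-08). In PD-L1 high 2 were higher and 4 lower than in treated all (median -0.02), beside 25.6% of all genes called. Compared with untreated all, 6 were higher and 3 lower, beside 60.1% of all genes called.

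Among 14 corepressor partners of Trim28, 8 fell, 3 rose and 3 were not called in treated all, with a median of -0.19. Over all tested genes 61.9% were called, 38.8% lower, with a median of -0.075. Chd3, a helicase of the NuRD complex, fell from 215 ± 6.8 to 106 ± 3.5 and was at 113 ± 0.62 in PD-L1 high (log2 change -1.02 in treated all, adjusted p = 2.2e-10). Chd4, its paralog, fell by 0.49 (adjusted p = 1.2e-06) and Cbx5, heterochromatin protein 1 alpha, by 0.67 (adjusted p = 1.5e-05), while Resf1, a partner of the methyltransferase Setdb1, rose by 0.76 (adjusted p = 6.7e-07). In PD-L1 high 3 were lower and none higher than in treated all (median -0.01), a share under the 25.6% of all genes. Set against untreated all, 8 were lower and 1 higher (median -0.19), where 41% of all genes were lower and 19.1% higher (median -0.101). Of 6 TRIM proteins listed under other gene symbols, the 2 tested were Pml and Mid1, and limma called neither in any comparison. Pml, a known interferon target, was at 27.1 ± 0.48, 26.9 ± 3.1 and 28.4 ± 0.68, and Mid1 at 8.48 ± 0.41, 7.74 ± 1.2 and 7.63 ± 0.44. Genes of IFNγ signalling and its direct targets, 12 in number, were taken as a check of the treatment. In treated all 11 rose and 1 was not called, where 23.1% of all tested genes rose.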

How the data were processed

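RNA-seq libraries of PDAC cells were made from 5 µg of total RNA, per the labels' protocols. The table the authors deposited gives 1 normalized signal per gene and library; the submitters' processing notes name mm10 and CASAVA 1.7, and no source used here gives the quantifier or the unit. Of 25507 rows, 695 had no value, all 24812 others matched a symbol, 52 symbols with several rows were summed, and 3 columns of the authors' group means were not used. Since the signal is neither counts nor a stated per-length unit, limma 3.58.1 (R 4.3.3; trend, robust) was fitted on log2(signal + 1) to all 10 libraries, for genes with a mean of at least 1, and tested on simulated data. The simulated libraries were drawn independently. That test therefore cannot show how the fit behaves with the untreated libraries, whose spread was not that of independent samples. Members with a called log2 change of at least 0.5 and no overlap in some comparison are given by library; the rest by counts, ranges or group means. Members, lists and tests were chosen with earlier results of these data known, and some listed genes are not reported here by name. Replicate numbers did not pair the libraries. Alternatives were another pseudocount, 2 other filters, 2 scalings, a plainer fit, a replicate block, each library left out, and pairs of untreated libraries left out. Promoters and coordinates are from RefSeq GRCm38.p6.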

Additional observations from a re-analysis of the deposited data

How the results depend on the processing

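Each of 45 log2 changes (15 members in 3 comparisons) was recomputed under 19 alternatives, or 18 for Trim15, Trim30a, Trim5 and Trim68, which are under a mean of 5: 817 values kept direction and side of the threshold, 20 lost the call, 1 gained it and 5 changed sign. All 5 were uncalled values of PD-L1 high against treated all: Trim26 at 0.01 with median-ratio and 0.02 with upper-quartile scaling, and Trim41, which lay between -0.12 and 0.11 as libraries were left out (-0.12 without treated all library 1, -0.03 and -0.07 without PD-L1 high libraries 1 and 3). In that comparison the TRIM calls numbered 5 without untreated libraries 3 and 4, and between 5 and 12 as single libraries were left out, and calls over all genes numbered 1892 without untreated libraries 3 and 4 against 2943; fewer samples entered these fits. TRIM calls ranged from 22 to 26 in treated all and from 26 to 28 in PD-L1 high, each against untreated all, as single libraries were left out. Leaving out untreated libraries 1 and 2 instead was added after the data were seen. Same-numbered libraries of different groups had deviations correlated at -0.196 to 0.104, so the numbers are not taken as pairs. With the replicate block, TRIM calls were 22 in treated all and 25 in PD-L1 high, each against untreated all, and 9 between the groups with IFNγ. Of the 15 members, Trim34a (adjusted p = 0.052) and Trim68 (0.074) lost their call in the latter under the block, as did Trim68 in PD-L1 high against untreated all (0.071). Without a depth, no limit of detection can be given for members at 0.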
